A study of Arabidopsis thaliana with 6 samples.

Results

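Jasmonate synthesis and its outputs were followed through 10 genes, taken from the count tables by their locus identifiers: LOX2, AOS, AOC1, AOC2, AOC3, AOC4, OPR3, VSP1, VSP2 and CORI3, out of 32744 genes in all. All 10 had enough reads to be tested. Counts came from seedlings of Arabidopsis thaliana at stage 1.04 of the Boyes scale, grown on media and given no treatment. Of the libraries, 3 came from wild-type plants and 3 carried the genotype label double mutant AT4G15640-AT3G21465. The libraries of the second group have titles beginning mtran1-2-2-1, and the series title speaks of uncharacterised mitochondrial proteins. No allele type, accession background or plant number was stated. The comparison asks how transcript levels differ between the genotypes. The design text mentions 2 biological replicates while titles number 3 libraries per genotype. The labels do not say which libraries, if any, came from separately grown plants. Each p-value therefore measures the spread between libraries, and that spread may be technical.

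Jasmonates are lipid-derived hormones of wounding, insect attack and fertility. In the chloroplast a lipoxygenase adds oxygen to linolenic acid, allene oxide synthase turns the hydroperoxide into an unstable epoxide, and allene oxide cyclases close its ring to give oxophytodienoic acid. That acid is reduced in the peroxisome and shortened by beta-oxidation to jasmonic acid, whose isoleucine conjugate binds the receptor COI1 and removes the JAZ repressors from MYC transcription factors. The vegetative storage proteins of leaves are classic outputs of the MYC branch.

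Libraries held between 53193772 and 78671470 counts. Plastid genes took 55.2% to 57.3% of the counts in wild type and 44.1% to 49.0% in the second group, and mitochondrial genes 1.56% to 1.71% against 4.25% to 4.64%. AT3G21465 fell by 0.78 on the log2 scale, going from 7.92 ± 0.4997 to 4.61 ± 0.255 CPM (adjusted p in edgeR = 8.95e-05; SD over n = 3), and AT4G15640 stood at 11.95 ± 1.07 and 13.4 ± 0.725 CPM (adjusted p in edgeR = 0.121; SD over n = 3). Without wild type replicate 2 AT4G15640 was called higher, at a log2 fold change of 0.24 with an adjusted p in edgeR of 0.0338. Since AT4G15640 was not lower, the second group is called the labelled double mutant, and each direction below rests on that label. CPM are counts scaled to a common library total after TMM adjustment, which aligns the libraries on the bulk of their genes.

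Of the 10 genes, 7 were higher in the labelled double mutant at an edgeR adjusted p under 0.05 and none was lower. Over all 21805 tested genes 52.4% were called, 26.3% as higher and 26% as lower. The 10 genes, and the gene lists below, were chosen with earlier results of these data known. Their counts beside these shares are therefore a description and not a test. The 7 that rose were LOX2, AOS, AOC1, AOC2, AOC4, VSP2 and CORI3, and 3 of them, AOC1, VSP2 and CORI3, rose by more than 2-fold. AOC3, OPR3 and VSP1 did not pass the test. The same 7 genes had every labelled double mutant library above every wild-type library, a pattern found in 32.1% of tested genes. The median log2 fold change of the 10 was 0.90, and that of all tested genes was 0.01. Summed over the 10 genes, the level ran from 641 to 752 CPM in wild type and from 1132 to 1524 CPM in the labelled double mutant. In RNA from whole seedlings, a change in the number of cells that express a gene and a change in RNA per cell cannot be told apart.

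**Figure D1:**
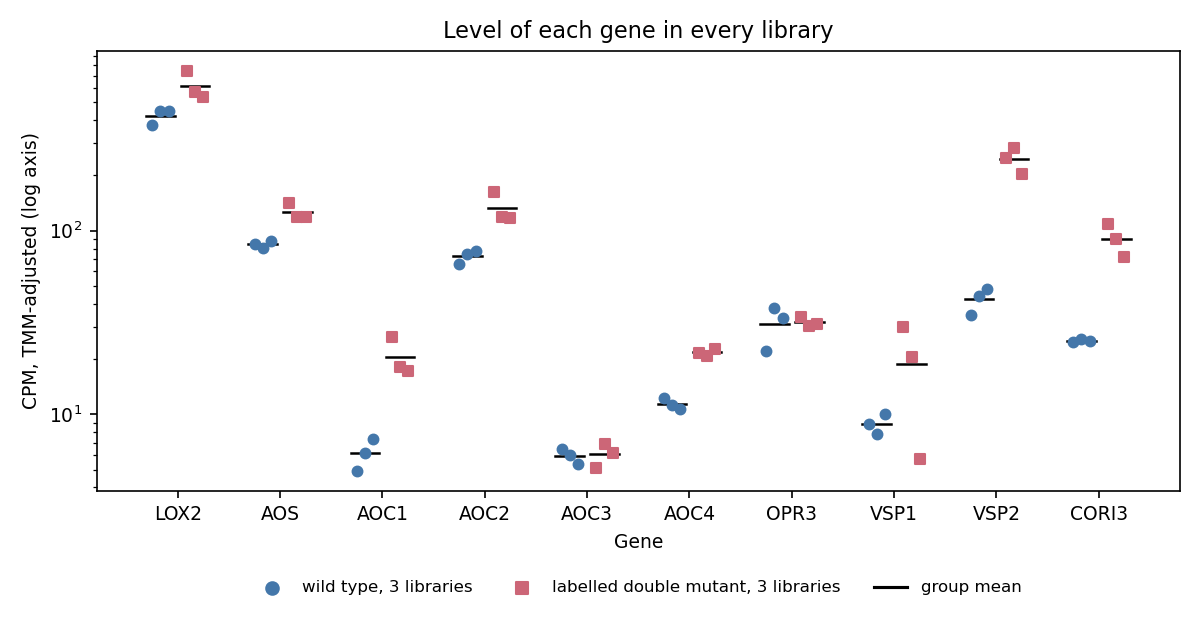
Level of each of the 10 genes in every library, in TMM-adjusted CPM on a log axis, with circles for the 3 wild-type libraries, squares for the 3 labelled double mutant libraries and a bar at each group's mean. For 7 genes the squares lie above all circles; for AOC3, OPR3 and VSP1 they overlap, and 1 square of VSP1 lies at 5.70 CPM.

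The early plastid steps are carried by LOX2 and AOS. Exon numbers here and below are of exons merged over the annotated transcripts of a gene, and can differ from those of any transcript. LOX2 (AT3G45140, TAIR10 chromosome 3, 16525245 to 16529352, plus strand, 7 exons) encodes the main leaf lipoxygenase of the pathway. Its level was 375, 450.1 and 446.5 CPM in the wild-type libraries and 744, 567 and 537 CPM in the labelled double mutant. The groups did not overlap, and labelled double mutant replicate 1 was the highest of the 6 libraries. The rise was 1.45-fold, a log2 fold change of 0.54 ± 0.13 (SE; adjusted p in edgeR = 0.00853). Without that library the log2 fold change was 0.37 and still passed the test (adjusted p in edgeR = 0.0171).

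AOS (AT5G42650, chromosome 5, 17097564 to 17099595, minus strand, 1 exon) is the single-copy allene oxide synthase, a cytochrome P450. It was at 85.1, 81.0 and 87.9 CPM in wild type and at 142, 118 and 119 CPM in the labelled double mutant. The lowest labelled double mutant library was above the highest wild-type library, and the wild-type values lay close together. Its log2 fold change was 0.58 ± 0.08 (SE; adjusted p in edgeR = 0.000486), a rise of 1.49-fold. Both genes were already well expressed in wild type. Ranked by counts per kb of exon, a scale that allows genes to be compared, LOX2 was at place 296 of 32548 nuclear genes in wild type and AOS at place 1057.

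The sequence just upstream of these genes is shown because the data bear on their transcript levels and because MYC factors are known to bind G-box motifs (CACGTG) and the related CACATG. Each line gives the 250 bases before the annotated start, 5′ to 3′ on the gene's strand, read from the RefSeq TAIR10.1 genome, with capitals for a match to CACGTG or CACATG on either strand. The LOX2 window is chr3:16524995-16525244 on the plus strand, and the AOS window is chr5:17099596-17099845 on the minus strand.
LOX2: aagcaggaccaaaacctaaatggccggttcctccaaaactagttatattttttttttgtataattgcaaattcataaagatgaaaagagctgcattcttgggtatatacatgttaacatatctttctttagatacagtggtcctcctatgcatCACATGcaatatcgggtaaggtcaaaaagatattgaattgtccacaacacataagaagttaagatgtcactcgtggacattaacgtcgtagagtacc
AOS: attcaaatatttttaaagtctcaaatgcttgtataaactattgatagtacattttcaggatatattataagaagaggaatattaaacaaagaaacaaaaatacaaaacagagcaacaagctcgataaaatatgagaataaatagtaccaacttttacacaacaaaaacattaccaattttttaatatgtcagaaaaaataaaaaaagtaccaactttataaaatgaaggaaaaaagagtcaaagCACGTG
The LOX2 match begins 97 bases before the start and the AOS match 6 bases before it. Among the 10 genes, CACGTG was found in the 250-base window of AOS alone, where 5.90% of 32546 nuclear genes hold it. CACATG was in that of LOX2 and AOC4, where 11.2% of genes hold it. The AOC4 window overlaps an annotated neighbour, AT1G13270. Either motif was in the windows of 3 of the 10 genes and of 16.2% of all genes. In 1000 bases the count was 4 of 10, AOC1 being added, against 46.1% of all genes. These are matches of letters and say nothing of binding, and a window without a match says only that these letters are not in it.

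The allene oxide cyclases, 4 genes, follow in the pathway. AOC1 (AT3G25760, 9403779 to 9405338), AOC2 (AT3G25770, 9406669 to 9408071) and AOC3 (AT3G25780, 9409160 to 9411090) stand side by side on the plus strand of chromosome 3, and AOC4 (AT1G13280, 4547388 to 4548894, plus strand) lies on chromosome 1. Each has 2 exons. Coding sequences were 90.3% identical between AOC1 and AOC2 and 82.7% between AOC1 and AOC3, so reads that fall where the copies differ separate them, while a read aligned to several copies was counted at each. A stretch of 60 coding bases of the tandem copies, read from TAIR10.1 on the plus strand, is shown with capitals for bases that differ from AOC2. It was picked as the ungapped stretch with the most such differences. The stretches are chr3:9404119-9404178 for AOC1, chr3:9407122-9407181 for AOC2 and chr3:9409515-9409574 for AOC3.
AOC1: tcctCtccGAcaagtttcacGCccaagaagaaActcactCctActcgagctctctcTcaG
AOC2: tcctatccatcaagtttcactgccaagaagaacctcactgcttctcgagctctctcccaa
AOC3: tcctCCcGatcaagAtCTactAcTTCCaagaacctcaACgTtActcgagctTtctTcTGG
AOC1 differs from AOC2 at 10 of these bases and AOC3 at 20. In the whole coding sequence they differed from AOC2 at 74 and 134 of 762 aligned bases. Over the whole exons, AOC1 and AOC2 shared no exact stretch of 50 bases. AOC1 and AOC3 shared 24 such stretches, 2.102% of those in AOC1, and AOC2 and AOC3 shared 1. Stretches were counted from each start base, so neighbouring ones overlap. The longest identical coding run of AOC1 and AOC3 was 73 bases. None of the 4 overlapped exons of another gene.

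AOC2 was the most abundant cyclase transcript in each library. It had 66.1, 74.5 and 77.85 CPM in wild type and 163, 119 and 117 CPM in the labelled double mutant. The groups did not overlap, and labelled double mutant replicate 1 was again the highest. Its log2 fold change was 0.87 ± 0.13 (SE; adjusted p in edgeR = 0.000665), 1.83-fold.

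AOC1 had the largest log2 fold change of the synthesis genes. It was at 4.94, 6.15 and 7.35 CPM in wild type and at 26.3, 18.1 and 17.3 CPM in the labelled double mutant. Its lowest labelled double mutant library was more than 2-fold above its highest wild-type library. The log2 fold change was 1.73 ± 0.19 (SE; adjusted p in edgeR = 9.98e-05), 3.32-fold, and its rank by counts per kb moved from 9213 to 2627.

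AOC4 showed the tightest groups of the cyclases. Its level was 12.3, 11.3 and 10.7 CPM in wild type and 21.7, 20.8 and 22.7 CPM in the labelled double mutant, with no overlap. The log2 fold change was 0.93 ± 0.07 (SE; adjusted p in edgeR = 1.35e-05), 1.91-fold. AOC3, the last gene of the tandem, did not pass the test. It stood at 6.50, 6.04 and 5.35 CPM against 5.12, 6.91 and 6.15 CPM, with the groups interleaved. Its log2 fold change was 0.03 ± 0.12 (SE; adjusted p in edgeR = 0.870), and 2 SE either side covered folds from 0.859 to 1.21. The sum of the 4 cyclases rose by 0.91 ± 0.11 on the log2 scale (SE; adjusted p in edgeR = 0.000224).

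The make-up of the cyclase total was compared per kb of exon. AOC1 held 6.09%, 6.92% and 7.99% of it in wild type and 13.2%, 12.0% and 11.6% in the labelled double mutant. AOC3 held 5.76%, 4.88% and 4.17% against 1.85%, 3.30% and 2.97%. In both cases the groups did not overlap. Mean shares of AOC2 were 76.4% ± 1.46 in wild type against 73.2% ± 1.82 in the labelled double mutant (SD, n = 3 each), and the mean AOC4 share was 11.7% ± 1.58 and 11.8% ± 1.96. An exact two-sided permutation test over 3 against 3 libraries cannot go below p = 0.1. The exact test gave p = 0.1 for the shares of AOC1 and AOC3, p = 0.2 for AOC2 and p = 0.9 for AOC4, and after Benjamini-Hochberg adjustment over 5 shares, VSP1 included, these were 0.167, 0.167, 0.25 and 0.9.

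**Figure D2:**
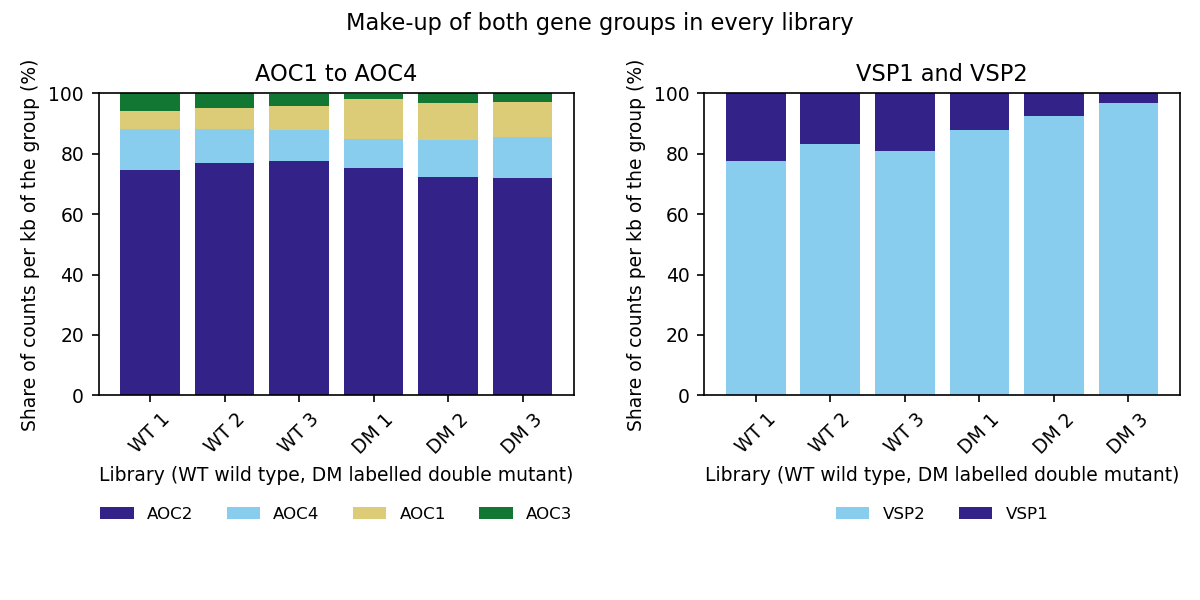
Share of each gene in the counts per kb of its group, in %, for every library: AOC1 to AOC4 in the left panel, VSP1 and VSP2 in the right panel. AOC1 takes 11.6% to 13.2% in the labelled double mutant against 6.09% to 7.99% in wild type, and VSP1 takes 3.06% to 12.0% against 16.8% to 22.2%.

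OPR3 (AT2G06050, chromosome 2, 2359114 to 2362375, minus strand, 4 exons) encodes the peroxisomal reductase of oxophytodienoic acid. Its wild-type libraries were spread, at 22.2, 37.9 and 33.3 CPM. The labelled double mutant libraries, at 34.0, 30.2 and 31.1 CPM, lay inside that range. The log2 fold change was 0.02 ± 0.16 (SE; adjusted p in edgeR = 0.914), and 2 SE either side covered folds from 0.81 to 1.28. Its sign turned when wild type replicate 1, the lowest library, was left out (-0.17; adjusted p in edgeR = 0.118). OPR3 and AOC3 were the synthesis genes without a call.

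The vegetative storage protein genes VSP1 (AT5G24780, 8507590 to 8509201, 3 merged exons) and VSP2 (AT5G24770, 8500468 to 8502224, 2 merged exons) lie on the minus strand of chromosome 5. They encode acid phosphatase-like glycoproteins that accumulate in leaves and flowers, and VSP2 acts against insects. Their coding sequences were 89.5% identical, differing at 84 of 798 aligned bases. The 60 coding bases shown of each were picked as the ungapped stretch with the most differences, with capitals where VSP1 differs from VSP2. The stretches are chr5:8508063-8508122 for VSP1 and chr5:8501001-8501060 for VSP2, both on the minus strand of TAIR10.1.
VSP1: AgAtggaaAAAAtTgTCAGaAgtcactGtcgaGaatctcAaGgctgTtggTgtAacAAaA
VSP2: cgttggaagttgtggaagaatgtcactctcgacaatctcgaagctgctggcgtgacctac
They differ at 22 of these bases. Over whole exons the genes shared 5 exact stretches of 50 bases, counted from each start base and so overlapping, 0.388% of those in VSP1. Their longest identical coding run was 54 bases.

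VSP2 rose more than any other of the 10 genes. It had 34.9, 44.1 and 48.3 CPM in wild type and 249, 283 and 204.5 CPM in the labelled double mutant. Every labelled double mutant library was at least 4-fold above every wild-type library. Its log2 fold change was 2.53 ± 0.15 (SE; adjusted p in edgeR = 4.35e-06), 5.78-fold, and its rank by counts per kb moved from 1668 to 187 of 32548. Of all tested genes, 1.40% had a log2 fold change at least as high.

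VSP1 did not pass the test, and 1 library decided that. Its level was 8.82, 7.83 and 10.1 CPM in wild type and 30.0, 20.4 and 5.70 CPM in the labelled double mutant. Replicates 1 and 2 of the labelled double mutant lay above every wild-type library and replicate 3 below every one. The log2 fold change was 1.07 ± 0.47 (SE; adjusted p in edgeR = 0.0839). Without labelled double mutant replicate 3 it was 1.501 and passed (adjusted p in edgeR = 0.000333), and over all alternatives the adjusted p ran from 6.59e-06, with VSP1 and VSP2 summed, to 0.337. In that same library VSP2 was the lowest of its group but still at 204.5 CPM.

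VSP1 made up 22.2%, 16.8% and 19.1% of the counts per kb of both genes in wild type and 12.0%, 7.57% and 3.06% in the labelled double mutant. The groups did not overlap (exact two-sided permutation p = 0.1, the smallest possible; 0.167 after adjustment). The sum of both genes rose by 2.36 ± 0.15 on the log2 scale (SE; adjusted p in edgeR = 6.59e-06), with VSP2 the larger part.

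The upstream windows of the storage protein genes are shown because the genes are a close pair. Their calls differed through 1 library of VSP1, and no link of these sequences to the levels was tested. They are chr5:8509202-8509451 for VSP1 and chr5:8502225-8502474 for VSP2, both on the minus strand of TAIR10.1, and they hold no capitals because neither holds CACGTG or CACATG.
VSP1: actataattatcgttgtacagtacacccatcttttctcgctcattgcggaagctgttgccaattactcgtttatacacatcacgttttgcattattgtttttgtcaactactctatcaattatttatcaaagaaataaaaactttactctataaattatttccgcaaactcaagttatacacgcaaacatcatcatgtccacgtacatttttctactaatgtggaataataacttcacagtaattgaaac
VSP2: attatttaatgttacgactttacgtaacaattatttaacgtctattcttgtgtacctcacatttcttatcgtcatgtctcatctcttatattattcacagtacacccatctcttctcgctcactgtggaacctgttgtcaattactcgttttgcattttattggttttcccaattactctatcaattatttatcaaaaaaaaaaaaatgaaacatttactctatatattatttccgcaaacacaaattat
An alignment of the windows paired 163 of the 250 bases of each, and 147 of these pairs (90.2%) were identical. The other bases of each window fell in gaps and are not part of that percentage.

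CORI3 (AT4G23600, chromosome 4, 12310379 to 12313212, plus strand, 6 exons), annotated as a tyrosine transaminase family protein, is a gene induced by coronatine, the bacterial mimic of the active jasmonate. It was at 24.9, 25.7 and 24.9 CPM in wild type and at 109, 90.5 and 71.8 CPM in the labelled double mutant. The wild-type libraries were nearly level and each labelled double mutant library was well above them. Its log2 fold change was 1.84 ± 0.13 (SE; adjusted p in edgeR = 1.16e-05), 3.59-fold.

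**Figure D3:**
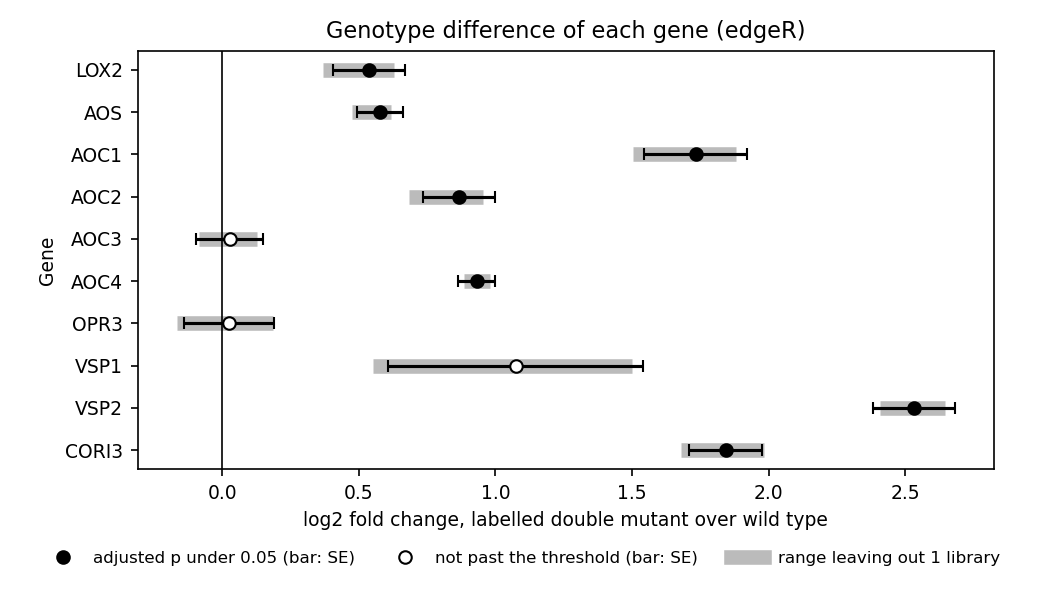
log2 fold change of each gene, labelled double mutant over wild type, from the edgeR fit, with the SE as the bar, filled points for an adjusted p under 0.05, and a grey band for the range when 1 library is left out. VSP2 lies farthest right at 2.53; AOC3 and OPR3 lie near 0; the band of VSP1 runs from 0.55 to 1.501.

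The order of the levels themselves differed between the groups. Per kb of exon, wild type ran from LOX2 (130 ± 13.0 CPM per kb; SD, n = 3, as for each level in this order) through AOC2 (56.0 ± 4.64), AOS (41.7 ± 1.71), VSP2 (28.0 ± 4.51), OPR3 (18.25 ± 4.72), CORI3 (10.9 ± 0.196), AOC4 (8.51 ± 0.586), VSP1 (6.66 ± 0.841) and AOC1 (5.16 ± 1.01) to AOC3 (3.59 ± 0.351). Of neighbours in that order, VSP1 and AOC1 had overlapping libraries. In the labelled double mutant LOX2 (189 ± 34.5 CPM per kb) was followed by VSP2 (162 ± 25.9), whose libraries overlapped with it, and then by AOC2 (102 ± 20.3), AOS (62.2 ± 6.53) and CORI3 (39.1 ± 7.96). OPR3 (18.6 ± 1.17), AOC1 (17.25 ± 4.18), AOC4 (16.2 ± 0.692) and VSP1 (13.99 ± 9.14) then overlapped from each to the next, above AOC3 (3.65 ± 0.542). VSP2 thus moved past AOC2 and AOS, and CORI3 past OPR3.

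The libraries of a group also differed among themselves in these genes. Labelled double mutant replicate 1 was the highest of its group for 7 of the 10 genes, AOC3, AOC4 and VSP2 being the exceptions. Replicate 3 was the lowest of the group for 6 of the 10. Among wild-type libraries, replicate 1 was the lowest for 6 of the 10.

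Genes that supply or use the same intermediates were read from lists of the pathway. The counts for each list stand beside the 52.4% of all tested genes called, 26.3% as higher and 26% as lower. Over these lists, the share of tested genes called ran from 40% (ERF branch) to 77.8% (other MYC-branch outputs). Of 7 substrate genes, 5 were tested, 3 were lower and none was higher, and the median log2 fold change was -0.97. The plastid desaturases that make linolenic acid were among them: FAD7 fell by 0.97 ± 0.07 and FAD8 by 1.37 ± 0.09 on the log2 scale (SE; adjusted p in edgeR = 9.38e-06 and 6.62e-06). AT1G02660, an alpha/beta-hydrolase family gene, fell by 2.35 ± 0.18 (SE; adjusted p in edgeR = 1.7e-05). The lipases DAD1 and DGL were not tested; both had 0 counts in all 6 libraries. Of 6 other lipoxygenase and hydroperoxide lyase genes, 2 were higher and 2 lower. LOX4, a lipoxygenase of the jasmonate route, fell by 0.63 ± 0.16, and LOX5, a lipoxygenase of the other positional class, fell by 0.88 ± 0.09 (SE; adjusted p in edgeR = 0.0111 and 8.64e-05). HPL1, annotated as a hydroperoxide lyase, rose by 0.80 ± 0.17 (SE; adjusted p in edgeR = 0.00467). LOX1 rose by 0.28 ± 0.08 (SE; adjusted p in edgeR = 0.0172), a call lost without labelled double mutant replicate 2 or 3, at 0.26 and 0.27 (adjusted p in edgeR = 0.0522 and 0.0573).

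Transport, the OPR3 relatives OPR1 and OPR2, and peroxisomal beta-oxidation made up a list of 15 genes. Of these, 9 were higher, 1 was lower and the median log2 fold change was 0.25. AIM1 and MFP2, the multifunctional proteins of fatty acid beta-oxidation, rose by 0.69 ± 0.06 and 0.56 ± 0.05, and the acyl-CoA oxidase ACX1 by 0.48 ± 0.05 (SE; adjusted p in edgeR = 4.52e-05, 4.21e-05 and 0.000108). OPR2, a relative of OPR3 that acts poorly on the jasmonate precursor, rose by 0.87 ± 0.10 (SE; adjusted p in edgeR = 0.000145), but it overlaps OPR1 on the same strand and 16.1% of its 50-base stretches occur there, so its count is uncertain. ACX4, the short-chain oxidase, fell by 0.16 ± 0.06 (SE; adjusted p in edgeR = 0.045), a small change whose adjusted p ran from 0.0326 to 0.126 over the alternatives. It was lost without wild type replicate 1 or 3 (-0.16 and -0.14) and without labelled double mutant replicate 1 or 3 (-0.15 and -0.16), and also when low-count genes were kept (-0.16; adjusted p in edgeR = 0.0673).

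Genes that conjugate or remove the hormone went in both directions. Of 12 listed, 10 were tested, 3 were higher and 3 lower. JAR1, which makes the active isoleucine conjugate, rose by 0.33 ± 0.08 (SE; adjusted p in edgeR = 0.00925). CYP94B3, a hydroxylase of the conjugate, rose by 0.94 ± 0.25, and ST2A, a sulfotransferase of hydroxyjasmonate, by 2.095 ± 0.22 (SE; adjusted p in edgeR = 0.0112 and 8.04e-05). CYP94C1, which oxidises the conjugate further, fell by 1.43 ± 0.32, and the amidohydrolase ILL6 by 1.13 ± 0.16 (SE; adjusted p in edgeR = 0.00521 and 0.000499). AT5G05600, a 2-oxoglutarate oxygenase family gene, fell by 0.75 ± 0.20 (SE; adjusted p in edgeR = 0.0125), a call just lost without wild type replicate 3 (-0.58; adjusted p in edgeR = 0.0504). CYP94B3, CYP94C1 and ST2A stayed under 6 CPM in every library, so counting error is larger for them.

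In a list of perception genes and regulators, repressing ones included, 8 of 13 genes were higher and none was lower, beside 26.3% and 26% of all tested genes. The median log2 fold change of the 13 was 0.39. The receptor gene COI1 rose by 0.42 ± 0.06 (SE; adjusted p in edgeR = 0.000426). The transcription factor MYC4 went from 9.13, 7.29 and 7.499 CPM to 16.7, 15.1 and 16.8 CPM, a log2 fold change of 1.03 ± 0.09 (SE; adjusted p in edgeR = 3.96e-05). NIG1, a related factor, rose by 2.31 ± 0.21 and NAC019, a NAC factor, by 1.62 ± 0.21 (SE; adjusted p in edgeR = 4.24e-05 and 0.000306), both from under 1 CPM in wild type. Negative regulators were also among the higher genes. NINJA rose by 0.34 ± 0.05 and AT4G16430, also named JAM3, by 0.39 ± 0.06 (SE, adjusted p in edgeR = 0.000793 and 0.000983). Both were picked out after their values were seen, and their calls were not followed under the alternatives.

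Many JAZ repressor genes are themselves induced by jasmonate. Of 13 listed, 11 were tested, 1 was higher, 6 were lower and the median log2 fold change was -0.36. JAZ3 fell by 0.91 ± 0.08 and TIFY7, also named JAZ9, by 1.35 ± 0.24 (SE; adjusted p in edgeR = 3.76e-05 and 0.00146). JAZ7 had 1.71, 6.09 and 3.18 CPM in wild type and 0.233, 0.383 and 0.0565 CPM in the labelled double mutant, a log2 fold change of -4.0 ± 0.58 (SE; adjusted p in edgeR = 0.000493), which was -4.61 without labelled double mutant replicate 2. TIFY10B, also named JAZ2, fell by 0.36 ± 0.10 (SE; adjusted p in edgeR = 0.0168); the call was lost without wild type replicate 2 or 3 (-0.31 and -0.30) or labelled double mutant replicate 2 (-0.33). JAZ12, the 1 higher gene, rose by 0.24 ± 0.07 (SE; adjusted p in edgeR = 0.024), a call lost without wild type replicate 1 or 2 (0.21 and 0.22) or labelled double mutant replicate 1 (0.16).

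Among 9 other outputs of the MYC branch, 6 were higher and 1 was lower, and their median log2 fold change was 0.94. MBP1, a myrosinase-binding protein, had 7.99, 7.998 and 6.85 CPM in wild type and 151, 123 and 100.2 CPM in the labelled double mutant, a log2 fold change of 4.03 ± 0.16 (SE; adjusted p in edgeR = 6.19e-07). TSA1, a protein of endoplasmic reticulum bodies, rose by 2.43 ± 0.11 and MBP2, the neighbour of MBP1, by 1.74 ± 0.20 (SE; adjusted p in edgeR = 9.84e-07 and 0.00015). JR1, a jacalin lectin, rose by 0.72 ± 0.08 (SE; adjusted p in edgeR = 0.000113). The 1 lower gene was TAT3, a tyrosine aminotransferase, as is the family of CORI3. It had 0.743, 2.41 and 5.87 CPM in wild type and 0.784, 0.123 and 0.155 CPM in the labelled double mutant, so its groups overlapped. Its log2 fold change of -3.08 ± 0.80 (SE; adjusted p in edgeR = 0.0109) ranged from -2.16 without wild type replicate 3 to -4.46 without labelled double mutant replicate 1.

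Of 8 genes of the ERF branch, which jasmonate controls together with ethylene, 5 were tested, 2 were higher and none was lower. HCHIB, a basic chitinase, rose by 0.38 ± 0.11 (SE; adjusted p in edgeR = 0.0171) and lost its call without labelled double mutant replicate 1 (0.33; adjusted p in edgeR = 0.065). The factor gene ERF1, at 0.0753 to 0.206 CPM in the wild-type libraries, rose by 1.08 ± 0.39 (SE; adjusted p in edgeR = 0.0457). Its call was lost without wild type replicate 2 or 3 (0.77 and 1.07) and without labelled double mutant replicate 1, 2 or 3 (1.16, 0.82 and 1.203). It was also lost when low-count genes were kept (1.08; adjusted p in edgeR = 0.0556) and in DESeq2 (1.05; adjusted p = 0.127). The 3 untested genes were the defensin genes PDF1.2, PDF1.2b and PDF1.2c. PDF1.2 had 2, 171 and 62 counts in wild type against 1, 5 and 0 counts in the labelled double mutant. PDF1.2b had 0, 29 and 26 counts and PDF1.2c 0, 107 and 48 counts in wild type, and both had 0 in each labelled double mutant library. PDF1.3, a further defensin gene, was tested without a call, at a log2 fold change of -2.31 ± 1.05 (SE; adjusted p in edgeR = 0.0953), and the groups of all 4 defensin genes overlapped.

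Acid phosphatase genes related in sequence family to VSP1 and VSP2 went mostly down. Of 7, 1 was higher and 4 were lower, and their median log2 fold change was -0.70. AT5G44020 had 174, 156 and 179 CPM in wild type and 22.3, 33.8 and 22.2 CPM in the labelled double mutant, a log2 fold change of -2.70 ± 0.16 (SE; adjusted p in edgeR = 4.77e-06). AT1G04040 fell by 1.26 ± 0.09, AT2G38600 by 2.44 ± 0.33 and AT4G29270 by 0.70 ± 0.15 (SE; adjusted p in edgeR = 1.41e-05, 0.000357 and 0.00411). The level of AT2G38600 was low, at 0.809 CPM in wild type and 0.147 CPM in the labelled double mutant. AT5G51260 rose by 0.31 ± 0.11 (SE; adjusted p in edgeR = 0.0408), and this call was lost without any 1 of wild type replicates 2 and 3 (0.32 and 0.24) and labelled double mutant replicates 1, 2 and 3 (0.29, 0.33 and 0.28), and in DESeq2 (0.30; adjusted p = 0.116). AT5G44020 and AT2G38600 overlap a neighbour on the same strand by 17 and 55 bases.

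Genes known to answer quickly to wounding and touch were mixed. Of 9, 8 were tested, 2 were higher and 3 lower. The calmodulin-like genes TCH2 and TCH3 fell by 1.36 ± 0.17 and 2.19 ± 0.23 (SE; adjusted p in edgeR = 0.000239 and 8.45e-05). TCH4, a cell-wall xyloglucan enzyme, fell from 341, 344 and 337 CPM to 21.3, 79.2 and 20.7 CPM, a log2 fold change of -3.08 ± 0.49 (SE; adjusted p in edgeR = 0.000853), which was -4.03 without labelled double mutant replicate 2. RNS1, a wound-induced ribonuclease, rose by 1.25 ± 0.21 (SE; adjusted p in edgeR = 0.00109), at low levels of 0.343 CPM in wild type and 0.809 CPM in the labelled double mutant. STZ, a zinc-finger factor, rose by 0.84 ± 0.28 (SE; adjusted p in edgeR = 0.0316), a call lost without wild type replicate 2 (0.95) or labelled double mutant replicate 1 or 3 (0.74 and 0.80), and in DESeq2 (0.82; adjusted p = 0.0895).

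**Figure D4:**
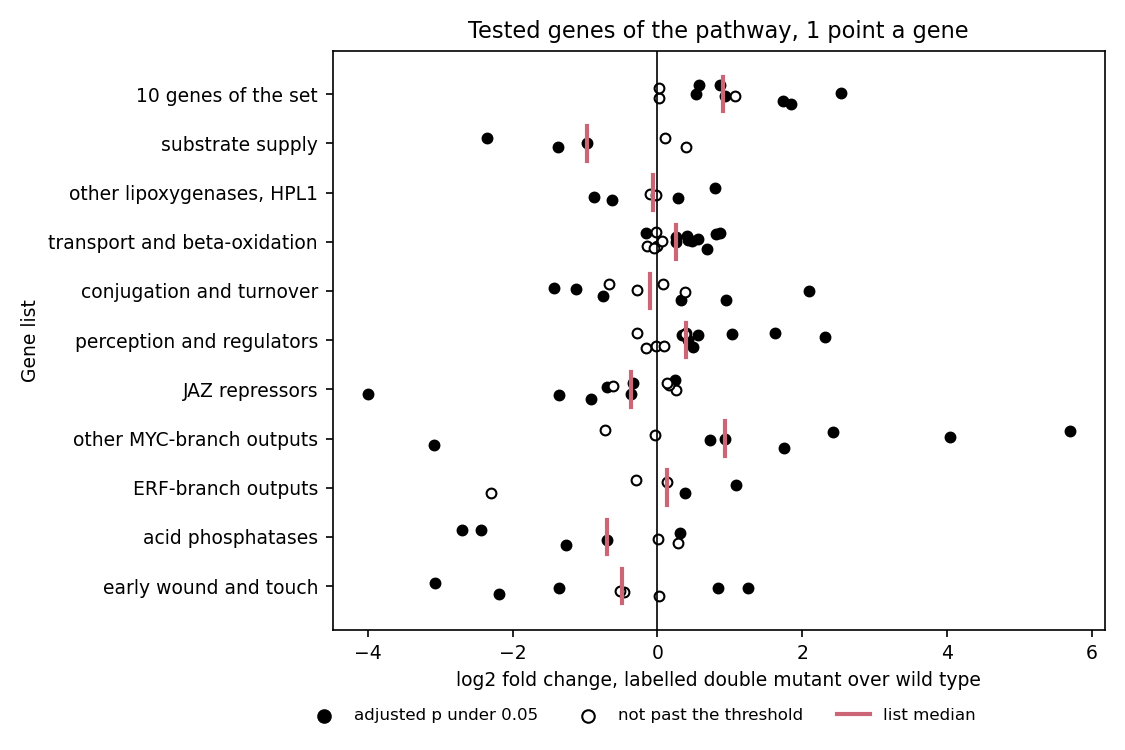
log2 fold change, labelled double mutant over wild type, of each tested gene in the 10-gene set and in 10 further lists of the pathway, 1 point a gene, filled where the edgeR adjusted p is under 0.05, with a bar at the list median. The medians of the set and of the other MYC-branch outputs lie at 0.90 and 0.94, those of the JAZ repressors and of the VSP-related acid phosphatases at -0.36 and -0.70. The rightmost point is THI2.1, picked out after its value was seen; its wild-type counts were 0, 1 and 0, so its place depends on the prior count.

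Genes with the closest profile over the 6 libraries were looked for among 12861 genes whose mean reached 5 CPM, by root mean square distance of log2 CPM centred on the wild-type mean. Nearest to LOX2 were AT1G51550 at a distance of 0.0691 and AT4G20930 at 0.0847. Nearest to VSP2 were EXLB1, an expansin-like gene, at 0.163 and BGLU11, a beta-glucosidase family gene, at 0.189. EXLB1 had 7.99, 7.65 and 8.44 CPM in wild type and 41.7, 50.1 and 41.6 CPM in the labelled double mutant.

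Markers of root, leaf and flower were read beside these genes, against the 26.3% of all tested genes called higher and 26% called lower. Of 17 root markers, 11 were lower and 1 was higher, and their summed level was 848 to 1264 CPM in wild type and 524 to 575 CPM in the labelled double mutant. Most of that sum was PYK10, a root beta-glucosidase, at 813 to 1203 CPM in wild type and 501 to 552 CPM in the labelled double mutant. The other 16 markers summed to 35.4 to 61.0 CPM and to 22.9 to 23.3 CPM. Examples are TIP2;3, a root aquaporin, which fell by 3.27 ± 0.30, CASP1 of the Casparian strip, which fell by 2.09 ± 0.24, and SMB of the root cap, the 1 higher gene, which rose by 0.86 ± 0.19 (SE; adjusted p in edgeR = 3.82e-05, 0.000148 and 0.0053). Of 14 leaf markers, 3 were higher and 2 lower, with summed levels of 113 to 124 and 123 to 131 CPM. AS1, AS2 and KAN2, regulators of leaf polarity, rose by 0.49 ± 0.07, 1.00 ± 0.16 and 0.88 ± 0.16 (SE; adjusted p in edgeR = 0.00047, 0.000977 and 0.0018). YAB3 fell by 0.25 ± 0.08 and FMA, a stomatal factor, by 0.36 ± 0.13 (SE; adjusted p in edgeR = 0.0331 and 0.0426). The first call was lost without wild type replicate 2 or 3 (-0.17 and -0.25) or any of labelled double mutant replicates 1, 2 and 3 (-0.26, -0.27 and -0.24). The second was lost without wild type replicate 1 or 3 (-0.38 and -0.25) or labelled double mutant replicate 1 or 2 (-0.29 and -0.34).

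Floral markers were near the floor. Their 7 genes summed to 2.29 to 2.33 CPM in wild type and 0.331 to 0.568 CPM in the labelled double mutant. SEP3 and SEP1, with wild-type means of 1.42 and 0.540 CPM, made up most of the wild-type sum. Of the 7, 3 were tested, 2 were lower and none was higher, beside 26% and 26.3% of all tested genes. SEP1 and SEP3, floral MADS factors, fell by 4.10 ± 0.36 and 3.32 ± 0.36 (SE; adjusted p in edgeR = 3.33e-05 and 0.000102), and SEP3 by 4.15 without labelled double mutant replicate 2. PI, the remaining tested marker, was not called, at a log2 fold change of 0.56 ± 0.37 (SE; adjusted p in edgeR = 0.237). The part of these markers in the differences of the 10 genes was not tested.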

How the data were processed

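Whole-seedling total RNA was depleted of ribosomal RNA and read from a single end in stranded libraries, per the labels' protocols. STAR, featureCounts and TAIR10 are named in the submitters' processing notes, without versions of STAR or of the annotation. The authors deposited raw counts per gene, made with featureCounts 2.0.0 per the file headers, with strand used and each alignment of a multi-mapping read counted. The design text mentions 2 biological replicates while titles number 3 libraries per genotype; all 6 were used. The labels give no batch.

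Genotypes were compared in edgeR 4.0.16, run in R 4.3.3 (TMM, filterByExpr, quasi-likelihood F test, group as the single term, two-sided), with Benjamini-Hochberg adjustment over 21805 genes; the procedure was tested on simulated data. Shares used exact permutation tests. Pairs within a group differed by more than counting noise (chi-square per degree of freedom 10.9 to 38.3), so no library is another deposited again; whether libraries share plants cannot be read from this.

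The 10 genes and the gene lists were chosen with earlier results of these data known. From each list the text names up to 4 called genes with the smallest adjusted p (2 for organ markers), and each called gene of a direction that holds 5 or fewer. It also names 2 nearest profiles each of LOX2 and VSP2. Names and sequences are from RefSeq TAIR10.1, where 32520 of 32548 nuclear genes had the coordinates of the files. The symbols of all 10 genes matched those of the reference. Alternatives were DESeq2 1.42.0, limma-voom (limma 3.58.1), DESeq2 size factors in edgeR, no filter on low counts, a replicate block, nuclear genes only, paralogues summed, raw-count shares, and leaving out each library.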

Additional observations from a re-analysis of the deposited data

How the results depend on the processing

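LOX2, AOS, AOC1, AOC2, AOC4, VSP2 and CORI3 kept their direction and their call under the 12 alternatives that give each gene its own value. Under these the number of the 10 genes called higher ran from 7 to 8 and none was called lower; among all genes, 4678 to 5785 were called higher and 4833 to 5835 lower. With paralogues summed, AOC1 to AOC4 share 1 value and VSP1 and VSP2 another, at log2 fold changes of 0.91 and 2.36, both past the test. Leaving out 1 library moved VSP1 between 0.55 and 1.501, and it passed the test at 1.501, without labelled double mutant replicate 3; the cause was not tested. OPR3 ran from -0.17 to 0.19 and AOC3 from -0.087 to 0.13, changing sign without passing the test. The sign of OPR3 was negative without wild type replicate 1 (-0.17) or labelled double mutant replicate 1 (-0.038), and that of AOC3 without wild type replicate 3 (-0.049) or labelled double mutant replicate 2 (-0.087). The difference in the AOC4 share ran from -0.68 to 1.24 percentage points and was negative without wild type replicate 2 (-0.036) or 3 (-0.52) or labelled double mutant replicate 2 (-0.077) or 3 (-0.68). Same-numbered libraries deviated together with correlations of 0.19, 0.07 and -0.002 across genes, so the numbers were not taken as pairs. With the replicate block 7 of the 10 genes were called higher, and VSP1 was at 0.84 (adjusted p in edgeR = 0.136). Among the other genes named and followed under the alternatives, ERF1, ACX4 and AT5G51260 lost their call under it (adjusted p in edgeR = 0.0726, 0.0757 and 0.0607). The median log2 fold change of all genes was at most 0.0147 under these alternatives. Among the 10 genes the fewest counts in a library were 239, for AOC1; 1 count was worth 0.0122 to 0.0206 CPM.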
